A study of Mus musculus with 18 samples.

Results

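The possible contact examined here is between 2 genes on different chromosomes: Ifng on chromosome 10 and Il4 on chromosome 11. It was read from both ends by 4C, a method in which cross-linked chromatin is cut and ligated, and everything joined to a chosen bait gene is amplified and hybridised to a microarray. The members were the probes around the gene that was not the bait. They were the 600 probes at chr11:51250000-55250000 in the arrays with an Ifng bait and the 641 probes at chr10:115750000-119750000 in the arrays with an Il4 bait, 1241 of the 384942 probes of an array. These windows are called the Il4 window and the Ifng window. Positions are in mm8, a build inferred from the probe positions, since the labels name none.

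The series held 18 mouse arrays in 9 groups of 2. The Ifng bait was read in naive CD4 T cells, in Th1 cells, in Th2 cells, in Th1 cells lacking Stat4 (Stat4 KO Th1) and in 3T3-L1 cells, a fibroblast line that can turn into fat cells and serves here as a cell type other than T cells. The Il4 bait was read in the same 3 kinds of T cell and in Th2 cells lacking Stat6 (Stat6 KO Th2). The labels give no strain, age, sex or knockout allele, and the 3T3-L1 arrays come from a single line. The design text speaks of biological replicates and says that pooled material went onto 1 array, which it does not name, so that array could not be set apart. The labels also carry text that does not match the samples, including a protocol for adherent cells and a T cell characteristic on the 3T3-L1 arrays, and titles and source names were followed. 4C arrays measure DNA and not expression, so neither the cell types nor the loss of Stat4 or Stat6 could be checked against marker genes.

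Naive CD4 T cells can become Th1 cells, which secrete interferon gamma, the product of Ifng, or Th2 cells, which secrete interleukin 4, the product of Il4. STAT4 transmits the interleukin 12 signal that favours the Th1 fate and STAT6 transmits the interleukin 4 signal that favours the Th2 fate. An association between the Ifng locus and the Th2 cytokine locus in naive T helper cells is known from earlier chromosome conformation and microscopy work, in which it gave way to contacts within each chromosome upon differentiation. That history is background and was not used as a measurement.

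In the RefSeq gene order, Ifng lies next to Il22, a cytokine gene, to Iltifb, a close copy of Il22, and to Mdm1 on one side, with the kinase gene Dyrk2 and the gene Cand1, a regulator of cullin ubiquitin ligases, on the other. Il4 lies next to Il13 and Kif3a, a kinesin motor gene. Beyond Il13 come Rad50, a DNA repair gene that also carries the locus control region of the Th2 cytokines, then Il5, a cytokine gene for eosinophils, and Irf1, a transcription factor gene of the interferon response. The promoters of the genes at the centre of both windows are shown because STAT binding is the subject of the series, as its title states. They are the 250 bases upstream of the annotated start on the sense strand, from RefSeq on GRCm38.p6, which is not the build of the array. The Ifng promoter is chr10:118440796-118441045 on the plus strand and the Il4 promoter, the second of 2 entries, is chr11:53618666-53618915 on the minus strand. Capitals mark matches to TTCNNNGAA, a motif common to STAT proteins, or TTCNNNNGAA, the longer spacing that STAT6 also binds.
Ifng promoter: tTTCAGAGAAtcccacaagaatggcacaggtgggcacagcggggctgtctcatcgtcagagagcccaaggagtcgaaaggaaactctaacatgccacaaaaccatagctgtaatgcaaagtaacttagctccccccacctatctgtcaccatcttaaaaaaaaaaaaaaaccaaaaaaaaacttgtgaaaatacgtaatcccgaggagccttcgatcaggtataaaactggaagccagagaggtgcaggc
Il4 promoter: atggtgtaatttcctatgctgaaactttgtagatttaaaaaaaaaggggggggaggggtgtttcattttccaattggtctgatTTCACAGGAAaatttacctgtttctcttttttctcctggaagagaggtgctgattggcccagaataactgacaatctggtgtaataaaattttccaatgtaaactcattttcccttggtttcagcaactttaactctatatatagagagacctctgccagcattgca
The Ifng match starts at position -249 and the Il4 match at position -167 from the start site. Both motifs read the same on either strand. Of 32851 RefSeq promoters, taken over the same length, 7.02% held TTCNNNGAA and 5.85% held TTCNNNNGAA, and the other Il4 entry held neither. A match is a description of letters, and no binding was measured on these arrays.

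Signal is given as the log2 ratio of 4C DNA to genomic DNA, centred on the median of the probes off the bait chromosome, so that 0 is the level of a typical probe elsewhere in the genome. Read by their own bait, the windows were far above that level. The Ifng window averaged 2.28 over the 10 Ifng arrays (range 1.75 to 3.05), and the Il4 window averaged 2.04 over the 8 Il4 arrays (range 1.41 to 2.70). Read by the opposite bait, the Il4 window averaged 0.09 ± 0.05 (SD, n = 10 arrays) and the Ifng window 0.07 ± 0.04 (SD, n = 8). The levels from the opposite bait are therefore small against those from the same chromosome, which is the scale on which the values that follow should be read.

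The Ifng-bait arrays read the Il4 window at 0.13 and 0.20 in naive cells, at 0.038 and 0.068 in Th1 cells and at 0.13 and 0.062 in Th2 cells. Stat4 KO Th1 cells gave 0.098 and 0.097, and 3T3-L1 cells gave 0.024 and 0.043. Naive arrays were at the upper end and 3T3-L1 arrays at the lower end, and the Th2 arrays overlapped with the naive ones. Group means were 0.16 ± 0.05 in naive, 0.05 ± 0.02 in Th1, 0.10 ± 0.05 in Th2 and 0.03 ± 0.01 in 3T3-L1 cells (SD, n = 2 each).

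The Il4-bait arrays read the Ifng window at 0.020 and 0.11 in naive cells, at 0.13 and 0.10 in Th1 cells and at 0.024 and 0.072 in Th2 cells. Stat6 KO Th2 cells gave 0.10 and 0.039. The naive, Th2 and Stat6 KO Th2 arrays overlapped with one another, and the Th1 arrays lay above both Th2 arrays. Group means were 0.06 ± 0.06 in naive, 0.12 ± 0.02 in Th1, 0.05 ± 0.03 in Th2 and 0.07 ± 0.04 in Stat6 KO Th2 cells (SD, n = 2 each).

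**Figure D1:**
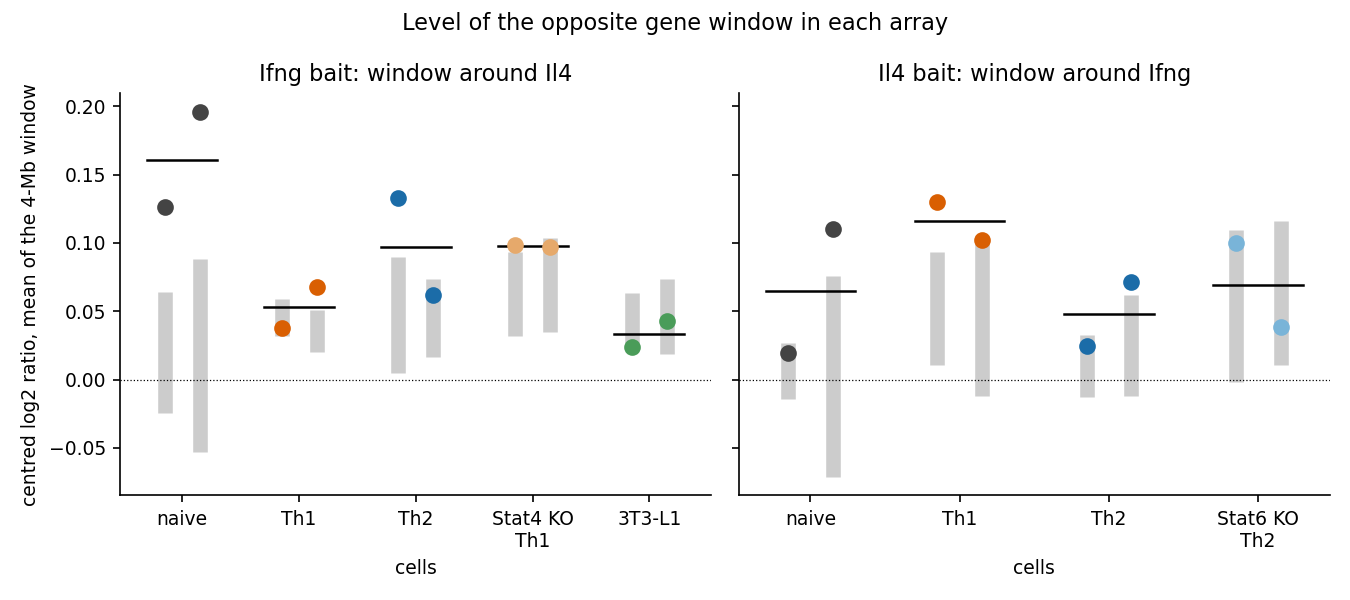
Centred log2 ratio (vertical axis) of the window around the opposite gene in each array, by cells, with the Ifng-bait arrays on the left and the Il4-bait arrays on the right; each point is 1 array. On the left both naive arrays (0.13 and 0.20) lie above both Th1 arrays (0.038 and 0.068), and on the right the naive arrays (0.020 and 0.11) overlap with the arrays of the other cells.

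A positive centred level is common across the genome, so each window was ranked among the 583 windows of the same width on chromosomes other than 10 and 11. The Il4 window stood at percentile 85.8 on the mean of the 10 Ifng arrays, and the Ifng window at percentile 77.4 on the mean of the 8 Il4 arrays. By array, the Il4 window stood at percentiles 91.6 and 94.5 in naive, 35.8 and 88.9 in Th1, 91.4 and 67.8 in Th2, 77.4 and 71.4 in Stat4 KO Th1 and 21.3 and 49.6 in 3T3-L1 cells. The Ifng window stood at 67.8 and 83.2 in naive, 86.8 and 73.2 in Th1, 68.6 and 79.8 in Th2 and 70.5 and 38.4 in Stat6 KO Th2 cells. Both windows thus lay in the upper part of the distribution in most arrays, above the array's median window in 7 of 10 Ifng arrays and 7 of 8 Il4 arrays. None of the 18 arrays placed its window above the 95th percentile. The 90th percentile was passed in 3 Ifng arrays, both naive arrays and a Th2 array, and in 0 Il4 arrays. On this measure neither window stood apart from the rest of the genome, and the name of a specific contact between Ifng and Il4 rests on a moderate rank from both ends.

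**Figure D2:**
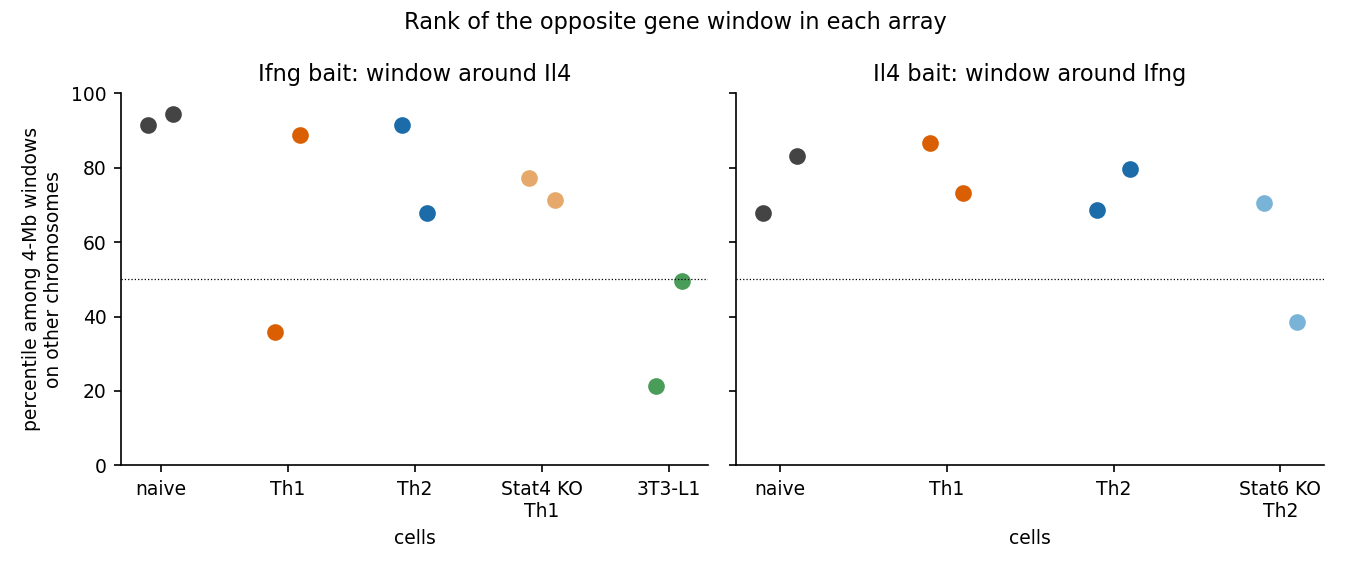
Percentile (vertical axis) of the opposite gene's window among 583 windows of 4 Mb on other chromosomes, by cells, for the Ifng bait (left) and the Il4 bait (right); each point is 1 array and the dotted line is the median window. The naive arrays of the Ifng bait reach 91.6 and 94.5, and the 3T3-L1 arrays 21.3 and 49.6.

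The windows' own chromosomes differed in their general level. Chromosome 11 had the highest median window of 19 chromosomes in the Ifng arrays (0.070), and the Il4 window was the 10th of 30 windows there. Chromosome 10 was 11th of 19 in the Il4 arrays (0.028), and the Ifng window was the 5th of 32 there. The windows on either side of the Il4 window averaged 0.06 ± 0.02 and 0.06 ± 0.03 (SD, n = 10), and the Il4 window exceeded each of them in 7 of 10 arrays. Those beside the Ifng window averaged -0.02 ± 0.03 and 0.04 ± 0.02 (SD, n = 8), and it exceeded them in 8 of 8 and 7 of 8 arrays. The Ifng window was thus above its neighbours in nearly every array, although its genome-wide rank was the lower.

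**Figure D3:**
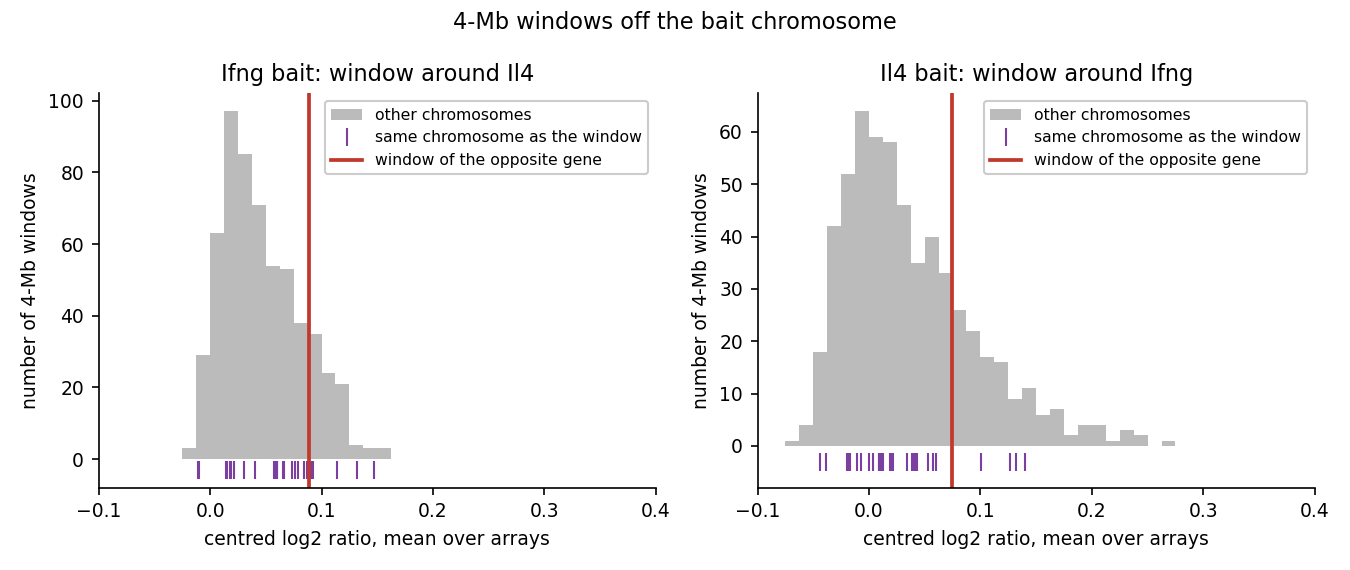
Distribution of the mean centred log2 ratio (horizontal axis) over 4-Mb windows on other chromosomes (grey bars, number of windows), with windows of the opposite gene's own chromosome as ticks and its window as a red line, for the Ifng bait (left, mean of 10 arrays) and the Il4 bait (right, mean of 8 arrays). The Il4 window at 0.09 and the Ifng window at 0.07 both lie inside the upper flank of the grey distribution.

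Within the Ifng-bait arrays the Il4 window fell from naive to Th1 cells, the largest of the 9 differences between cells in the means of the 4-Mb windows. The difference was -0.11 with a standard error of 0.03 (95% interval -0.17 to -0.05), and the arrays did not overlap. In limma, with all groups of the bait in the fit and Benjamini-Hochberg adjustment over 644 windows, the adjusted p was 0.0115. This contrast called 48.0% of all windows in either direction, so a call alone does not set the Il4 window apart. The arrays also differed in the spread of windows on other chromosomes (scaled median absolute deviation). It was 0.062 and 0.099 in the naive arrays and 0.020 and 0.023 in the Th1 arrays. A log2 difference is thus not on the same scale in both groups, and the part of the spread in it was not tested. Over the 613 windows off the bait chromosome the median change was 0.02, and 6.04% of them had a lower value than the Il4 window. The call was lost when either naive replicate 2 (adjusted p = 0.115) or Th1 replicate 1 (adjusted p = 0.0918) was left out. It was also lost with the median of the probes (-0.073, adjusted p = 0.0581 in limma). The sign turned when arrays were only divided by their own spread (0.44). When they were also centred on their median window, an alternative chosen after seeing the data, the difference was negative and not called (-1.21, adjusted p = 0.298). In those units the levels were 1.82 and 1.87 in naive cells and -0.40 and 1.53 in Th1 cells, so Th1 replicate 2 came close to the naive arrays. Arrays also fell into series by the leading digits of their serial numbers. Both naive arrays and Th1 replicate 1 were of series 31, where the difference was -0.12, while Th1 replicate 2 was of series 40.

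The other comparisons of the Il4 window did not pass the threshold. Th2 minus naive was -0.06 (95% interval -0.13 to -0.00093, adjusted p = 0.137 in limma), with 11.6% of windows called, a median change of 0.03 and 6.04% of windows lower. With the median of the probes in place of their mean it was 0.005. It shares the naive arrays with the Th1 comparison, and its arrays were all of series 31 (naive) or series 40 (Th2). Th1 minus Th2 was -0.04 (95% interval -0.11 to 0.02, adjusted p = 0.320), with 5.28% of windows called and 23.8% lower, and within series 40 it was -0.03. For the STAT4 question, Stat4 KO Th1 minus Th1 was 0.04 (95% interval -0.02 to 0.11, adjusted p = 0.299), with 6.68% called. The median window rose by 0.03 in this comparison, and 65.4% of windows had a lower value. Both knockout arrays lay above both Th1 arrays, but the knockout arrays form a serial series of their own (41), so series and genotype cannot be told apart. 3T3-L1 cells stood below the 6 naive, Th1 and Th2 arrays by a difference of -0.07 with a standard error of 0.02 (95% interval -0.12 to -0.02, adjusted p = 0.0516), with 22.4% of windows called, 4.89% lower and Th1 replicate 1 inside the range of the 3T3-L1 arrays. That value sits at the threshold: it passed when naive replicate 1 (adjusted p = 0.0189) or Th2 replicate 2 (adjusted p = 0.0237) was left out, and with quantile normalization (adjusted p = 0.0417). It was smaller with 2-Mb windows (-0.033, adjusted p = 0.333) and with the median of the probes (-0.045, adjusted p = 0.209), and without 3T3-L1 replicate 1 the adjusted p was 0.328. The 3T3-L1 arrays were of other series (26 and 29), so series and cell type cannot be told apart.

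The Il4-bait arrays gave no difference of the Ifng window that passed. Th1 minus naive was 0.05 (95% interval -0.04 to 0.15, adjusted p = 0.560 in limma), and 0 of 644 windows were called (0%), with 39 at an unadjusted p under 0.05. The median of the 615 windows off the bait chromosome rose by 0.04 in that comparison, and 62.8% of them had a lower value than the Ifng window. Within series 40 the difference was 0.10, and without naive replicate 1 it was 0.0063. Th2 minus naive was -0.02 (95% interval -0.11 to 0.08, adjusted p = 0.976), with 2.33% called and 14.3% lower. Its sign differed between serial series, at -0.09 within series 31 and 0.05 within series 40. Th2 minus Th1 was -0.07 (95% interval -0.16 to 0.03, adjusted p = 0.733), without overlap of the arrays, and 0 windows were called (0%), with 39 at an unadjusted p under 0.05. Within series 40 it was -0.04, and 14.96% of windows had a lower value. For the STAT6 question, Stat6 KO Th2 minus Th2 was 0.02 (95% interval -0.07 to 0.12, adjusted p = 0.808), with 0 windows called (0%) and 71 at an unadjusted p under 0.05, and the knockout arrays again had a series of their own. The median window rose by 0.04, more than the Ifng window, and 33.2% of windows had a lower value. Its sign turned under several settings, to -0.02 with quantile normalization for example.

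**Figure D4:**
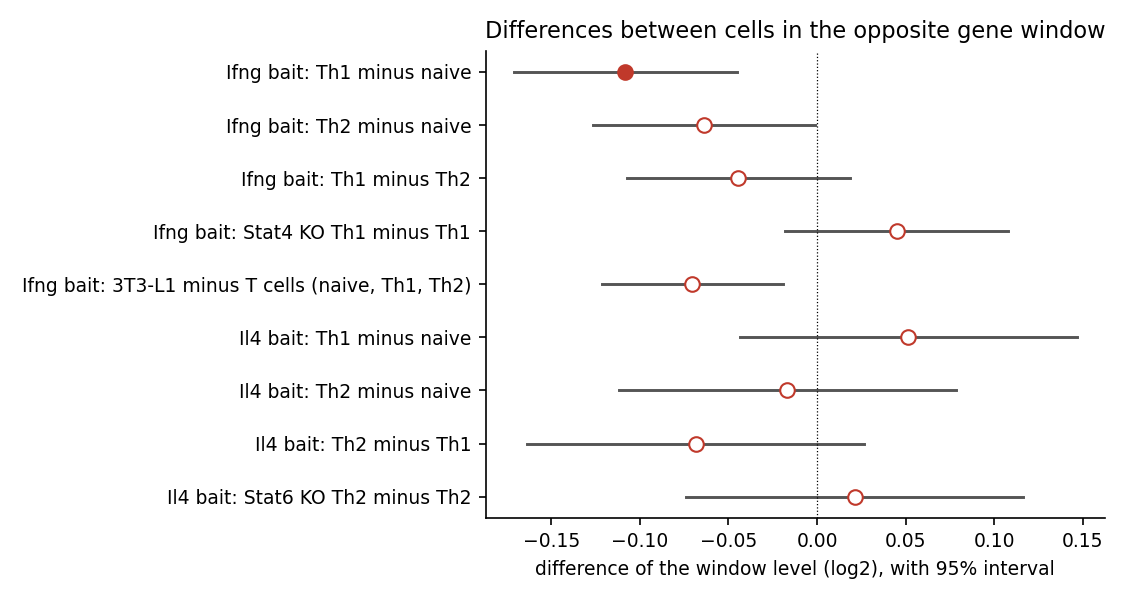
Difference of the window of the opposite gene between cells (horizontal axis, log2) for each comparison, with its 95% interval from limma, for the Ifng bait and the Il4 bait. The Th1 minus naive difference of the Ifng bait (-0.11, interval -0.17 to -0.05) lies clear of 0, and all 4 intervals of the Il4 bait cross 0.

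The 8 bins of 500 kb inside each window show where the signal lay. Across all 10 Ifng arrays the bin at the outer edge of the Il4 window, chr11:51250000-51750000, was the highest (0.13 ± 0.10, percentile 94.8 of 4541 bins on other chromosomes). On group means it was highest in Th2 cells (0.26 and 0.20, percentile 99.0), while the naive arrays read 0.036 and 0.29, so that a naive array lay above both Th2 arrays. The bin chr11:53250000-53750000, in which the Il4 bait itself peaked in 8 of 8 Il4 arrays, averaged 0.13 ± 0.07 (percentile 93.5). It read 0.16 and 0.25 in naive, 0.075 and 0.083 in Th1, 0.17 and 0.11 in Th2, 0.18 and 0.12 in Stat4 KO Th1 and 0.028 and 0.071 in 3T3-L1 cells, so every 3T3-L1 value lay below every T cell value. The bin just before it, chr11:52750000-53250000, was the lowest of the 8 (0.04, percentile 53.4). There 3T3-L1 cells had the highest group mean, 0.073. The other means were 0.027 in naive, 0.028 in Th1, 0.062 in Th2 and 0.028 in Stat4 KO Th1 cells. The 3T3-L1 mean was above that of the naive, Th1 and Th2 cells together in 2 of 8 bins, this one and chr11:52250000-52750000. The signal was therefore uneven inside the window, with no single maximum at Il4.

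Differences between naive and differentiated cells passed the test in 2 of these bins. The bin chr11:53750000-54250000 read 0.27 and 0.25 in naive cells (percentile 96.9 on the group mean) and averaged 0.02 in Th1 cells. The bin chr11:51750000-52250000 read 0.22 and 0.21 in naive cells and averaged 0.02 in Th1 cells. The Th1 minus naive differences were -0.24 (adjusted p = 0.00201 in limma) and -0.20 (adjusted p = 0.0109), the 2 bins called of 8, where 11.5% of all 5030 bins were called. The Th2 minus naive differences of the same 2 bins were -0.22 (adjusted p = 0.00610) and -0.18 (adjusted p = 0.0270), where 5.09% of all bins were called, and both comparisons share the naive arrays. With serial series as a block, 1 of 8 bins was called for Th1 and 0 of 8 for Th2. The count for Th1 fell to 1 without Th1 replicate 1. That for Th2 fell to 1 without naive replicate 1 or naive replicate 2, and to 0 without Th2 replicate 2. Divided by the spread of each array, without centring on its median window, 0 of 8 bins were called in either comparison. Th1 minus Th2 and Stat4 KO Th1 minus Th1 called 0 of 8 bins in limma, with 0 at an unadjusted p under 0.05, against 2.21% and 1.91% of all bins called. 3T3-L1 minus T cells called 0 of 8, with 5 at an unadjusted p under 0.05, against 10.6%.

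In the Il4-bait arrays the bin chr10:117750000-118250000 was the highest of the 8 (0.13 ± 0.10, percentile 88.0), and it was the highest in 4 of 8 arrays. It read 0.13 and 0.17 in naive, 0.25 and 0.30 in Th1 (percentile 97.2 on the group mean), 0.04 and 0.13 in Th2 and 0.03 and 0.02 in Stat6 KO Th2 cells (percentile 38.2). The Th1 arrays were above all others and the Stat6 KO Th2 arrays below all others. The Ifng bait itself peaked just before this bin, at chr10:117650000-117750000 on the mean of its arrays, which is where 4 of the 10 arrays had their peak; those of the other arrays lay between 116650000 and 118550000. Th2 minus Th1 in this bin was -0.19 with a standard error of 0.06, and the adjusted p over all 5030 bins was 0.384 in limma, so the difference did not pass. Th2 minus Th1 called 0 of 8 bins in limma, with this bin the 1 at an unadjusted p under 0.05, against 0.437% of all bins called. Th1 minus naive, Th2 minus naive and Stat6 KO Th2 minus Th2 also called 0 of 8, each with 0 at an unadjusted p under 0.05, against 0.179%, 2.13% and 0% of all bins.

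**Figure D5:**
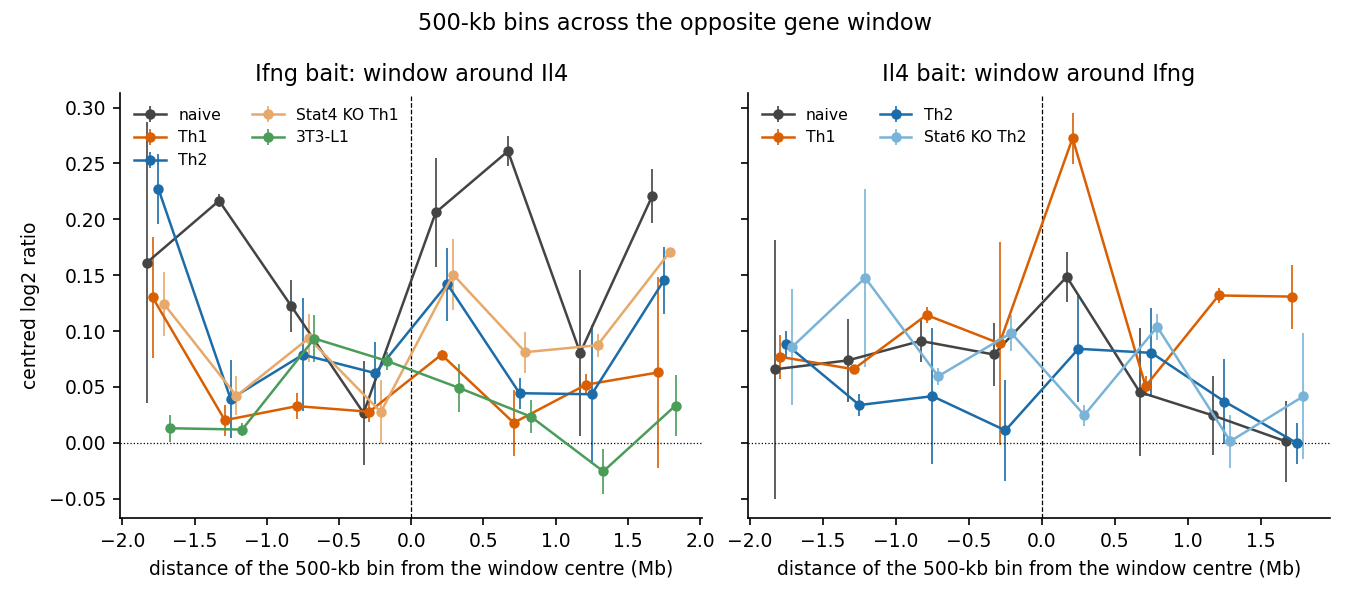
Centred log2 ratio (vertical axis) of the 8 bins of 500 kb in the Il4 window read by the Ifng bait and in the Ifng window read by the Il4 bait, against distance from the window centre in Mb, by cells. In the 2 bins of the Il4 window that passed the test, the naive arrays (0.27 and 0.25, and 0.22 and 0.21) stand above the Th1 and Th2 arrays. On group means naive cells are above both in other bins as well. Th1 cells read 0.25 and 0.30 in their highest bin of the Ifng window, and they are the highest group in other bins too.

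The profile across the opposite window did not resemble the profile around a bait. Within 200 kb of the Il4 window's centre the Ifng arrays read -0.0066 to 0.12, against 2.92 on the mean of the Il4 arrays. That stretch ends at 53450000, where the 100 kb in which the Il4 bait peaked begin, and it takes in part of the window's lowest bin. The bin with that peak averaged 0.13 in the Ifng arrays (percentile 93.5). Within 200 kb of the Ifng window's centre the Il4 arrays read -0.024 to 0.24, against 2.87 on the mean of the Ifng arrays. Over the 40 intervals of 100 kb in a window, the correlation of an array's profile with that of the other bait ran from -0.13 to 0.22 for the Ifng arrays and from -0.17 to 0.29 for the Il4 arrays, given as a description since neighbouring intervals share chromatin and probes. Over probes off chromosomes 10 and 11, 12 of 18 arrays correlated better with an array of another group than with their own replicate. Among them were both Ifng naive arrays (r = 0.242 and 0.348 with Il4 naive replicate 2, against 0.178 with each other) and both Ifng Th1 arrays. The highest such value was that of Ifng Th1 replicate 2 with Il4 Th2 replicate 2 (r = 0.406, against 0.0708 with Ifng Th1 replicate 1). Near the centre of the opposite window these 2 arrays read 0.052 and -0.024. Both were of series 40. Ifng Th1 replicate 1 and its closest array, Il4 Th2 replicate 1, were of series 31, as were both Ifng naive arrays and Il4 naive replicate 2. Other closest arrays were of another series, such as Ifng naive replicate 1 (series 31) for Il4 naive replicate 1 (series 40). The part of this likeness, or of the series, in the comparisons was not tested.

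The highest probes gave a similar picture for naive cells in the Il4 window, while the sign of several other differences turned, as given below. In the Ifng window the mean share was 6.71% in naive and 5.38% in Th1 cells, whereas the mean levels had the other order. The highest probes were those above the cutoff of the highest 5% of probes off the bait chromosome in an array. In a window with no excess, 5% of probes would lie above it. In the Il4 window this share was 8.67% (52 of 600 probes) and 8.83% (53 of 600) in the naive arrays, 4.50% and 6.0% in Th1, 5.67% and 3.67% in Th2, 4.50% and 4.83% in Stat4 KO Th1 and 3.00% and 3.83% in 3T3-L1 cells. The naive arrays were above all others on this measure. In the Ifng window the share was 6.08% and 7.33% in naive, 6.08% and 4.68% in Th1, 4.84% and 6.40% in Th2 and 5.30% and 4.37% in Stat6 KO Th2 cells, where the naive arrays lay above both Stat6 KO Th2 arrays and overlapped with the Th2 arrays. On the shares, Th1 minus naive in the Il4 window was -3.50 percentage points (adjusted p = 0.0266 in limma), where 11.3% of all windows were called. Th2 minus naive was -4.08 percentage points (adjusted p = 0.0102), where 14.9% were called, and it passed here although the difference of the mean log2 ratio did not.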

How the data were processed

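Chromatin was cut with HindIII and, after ligation, with Csp6I, and 4C DNA (Cy5) was hybridised against digested genomic DNA (Cy3), per the labels' protocols. The deposited values are 1 log2 ratio per probe and array. Base 2 was assumed, and the log base, background correction, normalization and genome build are not stated in the labels or files. Arrays give no counts, so precision is limited by their number, 2 a group.

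The median over probes on chromosomes other than the bait's was subtracted from every array, and no loess or quantile step was applied. Probes were averaged in windows of 4 Mb (at least 160 probes) and bins of 500 kb (at least 20 probes), leaving out windows reaching within 2 Mb and bins within 1 Mb of the bait. The median probe spacing was 5037 bases. Comparisons used limma 3.58.1 (lmFit, contrasts and eBayes, 2-sided) under R 4.3.3, one fit per bait over its groups, adjusted by Benjamini-Hochberg over all windows or bins at 0.05. Tables were made with Python 3.11.15, numpy 2.4.6, pandas 2.3.3 and scipy 1.17.1. The code was tested on simulated data. p-values measure the spread between arrays of a group. Windows, bins and comparisons were chosen with earlier results of these data known. The rule for named items took both windows, any of their bins, the 3 highest windows off the bait chromosome, Ifng, Il4 and up to 5 neighbours on each side; the bins described were picked from all of them after their values were seen. Alternatives were other window widths, window medians, shares of high probes, scalings, blocks, filters and leaving out each array. An array beyond the 18 was not analysed here.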

Additional observations from a re-analysis of the deposited data

Results flagged for a closer look

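The change from naive to Th1 cells had opposite signs when read from the Ifng bait and from the Il4 bait. The Il4 window read by the Ifng bait changed by -0.11 and the Ifng window read by the Il4 bait by 0.05, a difference of 0.16 on the log2 scale. Each Th1 array lay below the naive mean with the Ifng bait (by -0.12 and -0.09) and above it with the Il4 bait (by 0.07 and 0.04). An exact 2-sided permutation of the labels within each bait gave p = 0.111 over 36 arrangements, and 0.0556 is the smallest p these permutations can give. The comparison was flagged because its arrays had opposite signs, so this p follows a choice made on the same values. Th2 minus naive, also examined, changed by -0.06 with the Ifng bait and -0.02 with the Il4 bait (p = 0.611 in the same permutation). From naive to Th1 cells the median window off the bait chromosome rose by 0.02 with the Ifng bait and by 0.04 with the Il4 bait. The Ifng window's change thus lies close to that of a typical window. The Il4-bait change was 0.0063 without naive replicate 1, and it was -1.33 points on the share of the highest probes. Its cause was not tested.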

How the results depend on the processing

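Of 296 alternatives over all results, 250 left their result the same. Of the rest, 4 lost the call, 10 gained it, 20 changed sign and 12 moved a count of bins by over 1.5 times. A difference counted as the same if it kept its direction and side of the threshold, including differences that had not passed. A count of bins was the same within 1.5 times or if 0 stayed 0, and a percentile if it moved by less than the replicate spread. No percentile moved beyond the replicate spread: leaving out each array gave 80.8 to 89.2 for the Il4 window and 74.8 to 79.8 for the Ifng window. Ifng bait, Th1 minus naive was -0.073 with the median of the probes (adjusted p = 0.0581), 0.44 with arrays divided by their median absolute deviation and -1.21 when they were also centred on the median window, an alternative chosen after seeing the data. Division alone keeps the level of an array's median window, and centring takes it off. On other chromosomes that level was 0.046 and 0.033 in the Th1 arrays and 0.013 and 0.010 in the naive arrays. No other reason for the turn of sign was tested. As reported, this Th1 minus naive difference ranged from -0.14 to -0.073 without each array. Th2 minus naive was 0.005 with the median and -4.08 points with the share of the highest probes (range without each array -0.10 to -0.03). Bins called for Th1 minus naive were 0 after division and 1 with the series block (1 to 2 without each array), and for Th2 minus naive 0 and 0 (0 to 2). With that share, Th1 minus Th2 was 0.58, Stat4 KO Th1 minus Th1 -0.58, and for the Il4 bait Th1 minus naive -1.33, Th2 minus Th1 0.23 and Stat6 KO Th2 minus Th2 -0.78. With division, those were 0.60 for Th1 minus Th2, -0.39 for Stat4 KO Th1 minus Th1, -0.20 for Stat6 KO Th2 minus Th2 and 0.18 for Il4 Th2 minus naive, which was 0.012 with 8-Mb windows. Centred and divided, Th1 minus Th2 was -0.37, Stat4 KO Th1 minus Th1 0.14 and Il4 Th2 minus naive -0.096, the direction of the reported values. Stat6 KO Th2 minus Th2 was also -0.025 with the median, -0.024 with quantile normalization, -0.022 centred on the median window and -0.61 centred and divided. 3T3-L1 minus T cells passed with the share (-2.81 points), quantile normalization (-0.074), the extreme probes left out (-0.074), the median window as centre (-0.082), the bait chromosome left out (-0.070), trended robust moderation (-0.070) and the series as a random block (-0.070), the random block and the median window as centre chosen after seeing the data; it called 1 bin with quantile normalization and 1 with the bait chromosome left out. It did not pass with 2-Mb windows (-0.033, adjusted p = 0.333), the median (-0.045, adjusted p = 0.209), division (adjusted p = 0.128) or centring and division (adjusted p = 0.0945), and without 3T3-L1 replicate 1 the adjusted p was 0.328. Without each array it ran from -0.082 to -0.058, with 0 to 1 bins. Without each array Th1 minus Th2 ran from -0.08 to -0.0086, Stat4 KO Th1 minus Th1 from 0.03 to 0.06, and for the Il4 bait Th1 minus naive from 0.0063 to 0.10, Th2 minus naive from -0.062 to 0.028, Th2 minus Th1 from -0.09 to -0.04 and Stat6 KO Th2 minus Th2 from -0.0094 to 0.052. The cause of these changes was not tested.

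Arrays with the same replicate number did not deviate together: over 20 such pairs of the Ifng bait r ran from -0.53 to 0.64, and over 12 of the Il4 bait from -0.50 to 0.63, so the numbers do not pair them. With the replicate number as a block, Th1 minus naive in the Il4 window had an adjusted p of 0.0171 in limma and no call in either window changed. A fixed series block could not be fitted for the knockouts and 3T3-L1, which lie in series of their own.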

Other observations

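The windows with the highest mean level off the bait's chromosome lay elsewhere in the genome. The Ifng bait was highest at chr2:164250000-168250000 (0.16 ± 0.08, SD, n = 10), chr16:92250000-96250000 (0.16 ± 0.13) and chr15:76250000-80250000 (0.15 ± 0.08). The Il4 bait was highest at chr4:132250000-136250000 (0.26 ± 0.08, SD, n = 8), chr2:28250000-32250000 (0.25 ± 0.10) and chr15:76250000-80250000 (0.24 ± 0.10). The window on chromosome 15 is among the 3 highest of both baits, and the Il4 and Ifng windows ranked 84th and 133rd.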
